A study of Bos taurus with 106 samples.

Results

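Hepatic transcript abundance was compared between 4 cows fed ad libitum and 4 cows fed a restricted amount on day -30 relative to calving. The comparison used 16 of the 106 arrays of the series, chosen by the day in their titles, and these arrays form 8 of 53 cow-days, with 1 array in each dye orientation per cow. All animals were Holstein cows in the dry period, the 65 days without milking before calving, and both groups received the same diet of moderate energy density (1.60 Mcal/kg). Ad libitum cows (6886, 7050, 7161 and 7187) ate about 120% of the NRC requirement, and the intake of restricted cows (6877, 6952, 7045 and 7105) was held to about 80%. Liver cDNA was hybridised to spotted cDNA arrays against a common reference of other tissues, so each value is a log2 ratio of liver over reference, centred on the median of its array. A positive difference means a higher value in ad libitum cows.

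The liver of the ruminant makes nearly all of the animal's glucose, mainly from propionate that the rumen absorbs, because little dietary glucose reaches the intestine. It also takes up fatty acids released from adipose tissue and either oxidises them, turns them into ketone bodies or stores them as triacylglycerol. Feeding level before calving sets how much propionate and how many fatty acids reach the organ, and the comparison asks whether hepatic gene expression already differed about a month before calving.

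The liver label held at day -30. Hepatocyte genes lay far above the reference, with the bile acid carrier SLC10A1 at 5.65 ± 0.10 (SD, n = 4) in ad libitum and 5.65 ± 0.43 (SD, n = 4) in restricted cows, and the iron carrier TF at 4.97 ± 0.38 and 4.80 ± 0.20. The mesenchymal filament VIM lay far below it, at -4.83 ± 0.29 and -4.53 ± 0.27. Both orientations of a cow correlated with r from 0.610 to 0.794 over elements, with a mean of 0.640 ± 0.036 (SD, n = 4) in ad libitum and 0.734 ± 0.053 (SD, n = 4) in restricted cows (two-sided exact permutation p = 0.0571, adjusted p = 0.228 over 4 array measures). The median absolute deviation of the log2 ratios averaged 0.735 and 0.799 (exact permutation p = 0.229), and the array median before centring averaged -0.478 and -0.678 (exact permutation p = 0.171). The smallest p that 4 against 4 cows allow is 0.0286. Restricted cows thus had the closer orientations and the wider spread by mean, with overlapping cows for both measures, and the part of these measures in the gene differences below was not tested.

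No element separated the diets after correction. By limma, 0 of 8208 elements (0.0%) had an adjusted p under 0.05, and the smallest adjusted p was 0.487. Without correction 612 elements (7.46%) had p under 0.05, of which 335 (4.08%) were higher and 277 (3.37%) lower in ad libitum cows. The limma fit of all 14 diet-by-day groups with cow as a block, and the fit of 16 arrays with a dye term and cow as a block, also passed 0 elements, with 77 and 764 below the uncorrected threshold. All 4 ad libitum cows lay above all 4 restricted cows for 167 of 8021 elements measured in every cow (2.08%), and below them for 158 (1.97%). The median absolute difference was 0.122 on the log2 scale and the median SE of a difference was 0.137. The median within-group SD was 0.196, which describes single cows and not the mean of a diet. The 95% interval of the difference lay between -1 and 1 for 7623 elements (92.9%) and between -0.5 and 0.5 for 5129 (62.5%). A difference of 1 on this scale is a 2-fold ratio.

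The 24 genes given next had the smallest p in each direction and are described as values, since none passed. In the 23 genes measured in all 8 cows the diets did not overlap, which follows in part from ranking by p. The adjusted p of all 24 lay between 0.487 and 0.652 by limma. Their differences had the same sign in both dye orientations for 23 of 24. This too follows in part from ranking by p on the mean of both orientations. The share of all elements with the same sign in both orientations was not worked out.

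Among genes with higher values in ad libitum cows, TLN2 had the smallest p. It encodes talin 2, which links integrins to actin. Its log2 ratios were -0.43, -0.61, -0.68 and -0.48 in ad libitum cows and -1.19, -1.25, -1.11 and -1.35 in restricted cows. The groups were apart by more than their whole spread, with a difference of 0.68 ± 0.10 (SE, adjusted p = 0.487). LDHA, the lactate dehydrogenase subunit that interconverts lactate and pyruvate, read -2.84, -3.17, -2.87 and -2.85 against -3.46, -3.45, -3.56 and -3.45. Liver held far less LDHA transcript than the reference in every cow, and the difference of 0.55 ± 0.11 (SE, adjusted p = 0.508) was again wider than the spread in each diet. PCM1, a scaffold of the satellites around the centrosome, read 0.04, -0.18, -0.13 and 0.04 against -0.82, -0.32, -0.71 and -0.86, a difference of 0.62 ± 0.14 (SE). The RNA helicase DHX29, which helps the ribosome scan structured leaders, differed by 0.39 ± 0.09 (SE), with all ad libitum cows between 0.01 and 0.14 and all restricted cows between -0.43 and -0.24.

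The membrane-traffic genes in this direction were STX7, a SNARE of late endosomes (0.48 ± 0.12, SE), GPR137B, a lysosomal membrane protein (0.71 ± 0.17), and ARFRP1, a GTPase of the trans-Golgi (0.94 ± 0.20). ARFRP1 had values in only 2 ad libitum cows, 1.59 and 0.99, and its difference was -0.47 with liver in Cy5 and 2.32 with liver in Cy3. The orientations thus disagreed in sign for this gene. CCDC61, a centrosomal protein, differed by 0.75 ± 0.14 (SE), but by 0.22 in one orientation and 1.28 in the other. SRGAP1, a GTPase activator of the Slit-Robo pathway, differed by 0.87 ± 0.20, and OSGIN2, MOB4 and KIAA0232 by 0.58, 0.45 and 0.52.

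In the other direction the lysosomal alpha-mannosidase MAN2B1 read 1.77, 1.77, 1.64 and 1.51 in ad libitum cows and 2.29, 2.10, 2.32 and 2.35 in restricted cows. All restricted cows were higher, by a mean of 0.59 on the log2 scale (difference -0.59 ± 0.11, SE, adjusted p = 0.487). BHLHE40, a transcriptional repressor tied to the circadian clock and to nutrient signals, read -2.23, -1.92, -2.24 and -2.46 against -1.35, -1.46, -1.63 and -1.05 (difference -0.84 ± 0.15, SE). SULT1A1, a sulfotransferase that conjugates phenols, was well above the reference in both diets, with 2.42, 2.17, 2.84 and 2.20 against 3.49, 3.03, 3.40 and 3.70 (difference -0.996 ± 0.185, SE). No ad libitum cow reached the lowest restricted cow. SLC20A1, a sodium-phosphate carrier, differed by -0.56 ± 0.12 and CCS, the copper chaperone of superoxide dismutase, by -0.54 ± 0.13.

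ACAA1, the peroxisomal thiolase that closes each turn of beta-oxidation there, read 3.03, 3.14, 2.90 and 2.96 in ad libitum cows against 3.41, 3.35, 3.48 and 3.55 in restricted cows (difference -0.44 ± 0.10, SE, limma adjusted p = 0.652). IDI1, an isomerase of isoprenoid synthesis, read 0.86, 0.51, 0.19 and 0.32 against 1.42, 1.30, 1.15 and 1.92 (difference -0.98 ± 0.19, SE). RETREG2, related to receptors for autophagy of the endoplasmic reticulum, differed by -0.42 ± 0.10, the kinase HIPK2 by -0.41 ± 0.11, CCDC42 by -0.46 ± 0.10 and the ribosomal protein RPL18 by -0.42 ± 0.11.

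**Figure D1:**
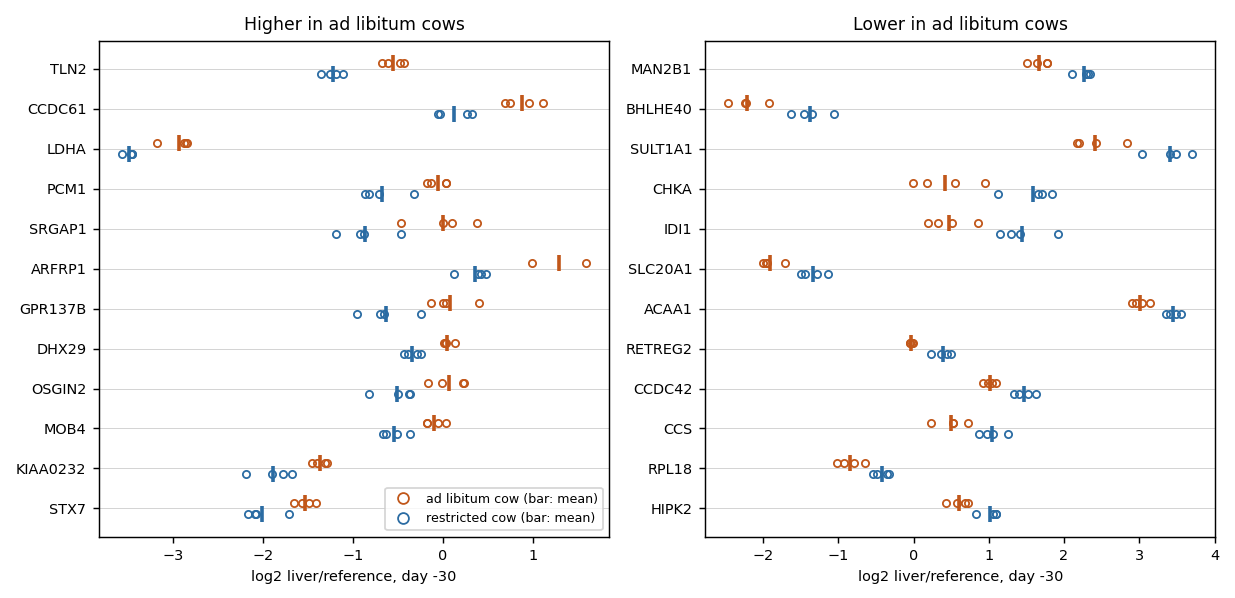
Log2 ratios of liver over reference on day -30 for the 12 genes with the smallest p in each direction, with an open circle per cow and a bar at the mean of each diet. The diets do not overlap for the 23 genes with all 8 cows, and ARFRP1 has only 2 ad libitum cows.

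Several of these genes were spotted as more than 1 cDNA element, which gives a second reading in the same samples. Other elements existed for 7 of the 24 genes, 11 elements in all, and 8 of the 11 had the sign of the leading element. MAN2B1 differed by -0.34 ± 0.16 and -0.19 ± 0.13 (SE) at its other elements, BHLHE40 by -0.39 ± 0.22 and -0.30 ± 0.18, ACAA1 by -0.64 ± 0.31, RETREG2 by -0.27 ± 0.12, IDI1 by -0.31 ± 0.27 and GPR137B by 0.21 ± 0.19. The exception was CHKA, the choline kinase that starts phosphatidylcholine synthesis. Its leading element read 0.95, -0.01, 0.55 and 0.18 in ad libitum cows against 1.66, 1.71, 1.12 and 1.84 (difference -1.16 ± 0.23, SE). Its 3 other elements differed by 0.43 ± 0.13, 0.18 ± 0.10 and 0.08 ± 0.14, so no direction is given for this gene.

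Most ribosomal protein genes, the structural parts of the ribosome, had lower values in ad libitum cows. Of 46 measured, 41 lay below and 5 above, with a median difference of -0.226, where 50.5% of all elements lay below and their median was -0.0023. An uncorrected p under 0.05 was reached by 17 of the 46 (37.0%), all lower, against 3.37% of all elements, and 0 passed correction. The cows did not overlap for 9 of 44 measured in every cow (20.5%), against 1.97%. RPS20 read -1.86, -1.60, -1.70 and -1.97 in ad libitum cows and -1.20, -1.44, -1.42 and -1.43 in restricted cows, and every restricted cow was higher (difference -0.41 ± 0.11, SE). RPS27 read -0.74, -0.60, -0.63 and -0.90 against -0.10, -0.00, -0.13 and -0.61 (difference -0.51 ± 0.15, SE), and cow 7105 lay at the edge of the ad libitum range. RPL6, RPL15, RPS9, RPS24 and RPL23 were the 5 on the other side, at 0.18, 0.15, 0.09, 0.08 and 0.05.

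The genes of this list share a cow's arrays, so their counts are not independent of each other. Its median per cow was -1.04, -1.08, -1.03 and -1.27 in ad libitum and -0.851, -0.796, -0.892 and -1.03 in restricted cows, and cows 7161 and 7105 met. The count of 17 was 7 without cow 7187 and 9 without cow 6877, and 13 to 18 without any other cow. It was 4 with liver in Cy5 and 18 with liver in Cy3, 2 in the fit of 14 groups with cow as a block, and 0 without centring. There the list median of -0.0261 still lay 0.224 below the median of all elements. Orientation agreement and array spread differed between the diets by mean only, with overlapping cows as given above, and their part in this list was not tested.

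**Figure D2:**
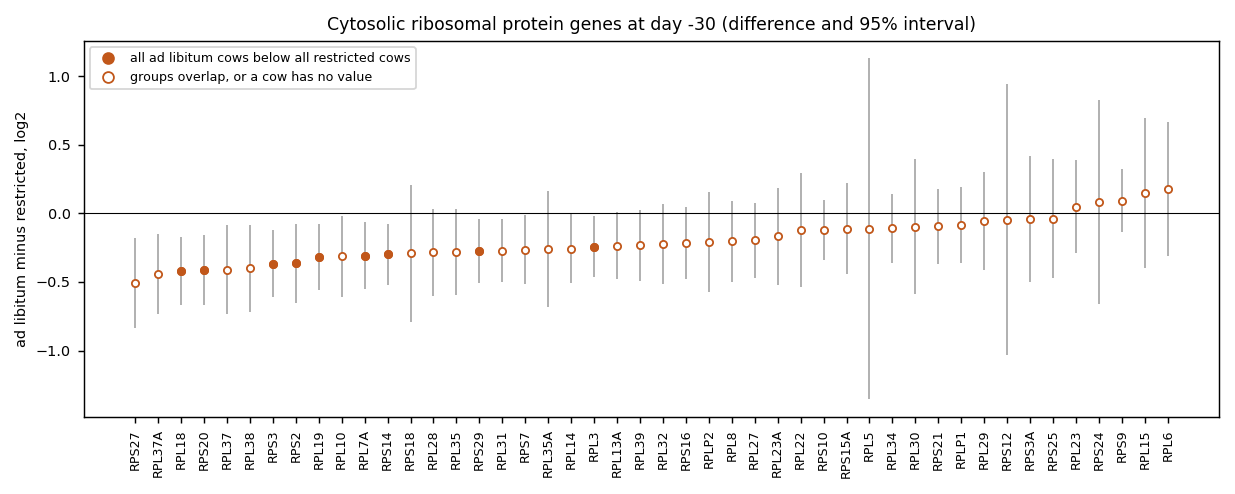
Difference between ad libitum and restricted cows on day -30 for 46 cytosolic ribosomal protein genes, in log2 units with the 95% interval from limma, sorted by size. Filled points mark the 9 genes whose cows do not overlap, and 41 of the 46 points lie below 0.

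Genes that carry lactate, propionate and pyruvate carbon toward glucose mostly had higher values in ad libitum cows. Of 16 measured, 14 were above 0, with a median of 0.187, and 2 (12.5%) had an uncorrected p under 0.05, against 4.08% of all elements. That count was 0 in the 14-group fit with cow as a block and 0 under scale normalization, 4 without cow 7045 and 3 without cow 7161 or 6952. The list median per cow was 0.388, 0.093, 0.159 and 0.455 in ad libitum and -0.00285, 0.206, 0.109 and 0.112 in restricted cows, and the diets overlapped. Beside LDHA these were SUCLA2, a subunit of succinyl-CoA synthetase, at -0.88, -0.82, -0.84 and -0.89 against -1.16, -1.11, -1.20 and -1.01 (difference 0.26 ± 0.09, SE). SUCLA2 differed by 0.54 with liver in Cy5 and by -0.02 with liver in Cy3, so the value rests on 1 orientation. The malate dehydrogenase MDH1 was at 0.27 ± 0.12 (SE). PC, the pyruvate carboxylase that makes oxaloacetate for glucose synthesis, read -0.13, -0.55, -0.68 and -0.96 against -0.62, -0.58, -0.53 and -0.14, and the diets overlapped throughout (-0.11 ± 0.18, SE). Of 19 genes of glycolysis and the pentose phosphate path 10 were above and 9 below, with a median of 0.0052. PFKL, the liver phosphofructokinase, was the only one under the uncorrected threshold (5.26%, against 4.08% of all elements). It differed by 0.71 ± 0.20 (SE), with 1.20 against 0.22 in the separate orientations.

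Genes of fatty acid oxidation lay on both sides. Of 17 genes of beta-oxidation 8 lay above and 9 below, with a median of -0.0276, and 2 were lower with an uncorrected p under 0.05 (11.8%, against 3.37% of all elements), ACAA1 and ETFB. ETFB, which passes electrons from the acyl-CoA dehydrogenases to the respiratory chain, read 1.10, 1.23, 1.31 and 0.82 against 1.55, 1.33, 1.54 and 1.29 (difference -0.31 ± 0.13, SE). HADHA, the mitochondrial trifunctional protein, was at -0.66 ± 0.31 with 3 ad libitum cows measured. CPT1A, the gate of mitochondrial entry, was at -0.09 ± 0.20 and its other element at 0.20 ± 0.19, ACSL1, which activates long-chain fatty acids, at 0.14 ± 0.26, and SREBF1, a regulator of lipogenesis, at 0.38 ± 0.42 with cows from 0.13 to 2.19 in the ad libitum group. BDH2 was the only ketone body gene measured, at 0.20 ± 0.19. DBI, the acyl-CoA binding protein, was at 0.53 ± 0.21. Restricted cow 6952 (-0.11) lay within the ad libitum range of -0.14 to 0.03. Restricted cow 7045 (-0.26) lay below that range, as did the 2 others at -0.92 and -1.08. Lipogenesis (20 genes) and cholesterol synthesis (10) had medians of 0.0116 and 0.0214. In the latter MSMO1, a sterol methyl oxidase, was at 0.80 ± 0.34, with ad libitum cows at 2.05, 1.81, 1.58 and 2.21 and restricted cows at 0.17, 1.26, 2.08 and 0.93. PCK1, FABP1, ACACA, SCD, IGF1, IGFBP2 and GHR were not analysed here because no element carried their symbol alone.

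Complement genes, made by the liver for the defence against microbes, mostly had lower values in ad libitum cows. Of 11 measured 8 were below 0, with a median of -0.222, and C1R, C1S and SERPING1 (27.3%) had an uncorrected p under 0.05, against 3.37% of all elements. C1R and C1S, the proteases of the first complement component, differed by -0.37 ± 0.13 and -0.60 ± 0.22 (SE), and SERPING1, their inhibitor, by -0.59 ± 0.22. C1S read 6.06, 5.30, 5.33 and 5.53 against 6.15, 5.70, 6.17 and 6.59, and cow 6886 lay within the restricted range. The median was 0.0937 under scale normalization, where array spreads are made equal, and C1R itself turned sign there. Without restricted cow 7105 the median was -0.0285. The count of 3 was 0 without cow 7105, 0 without ad libitum cow 7161, 1 without ad libitum cow 7050, and 0 in the fit of 14 groups with cow as a block. Without centring it was 0 too, and the list median of -0.022 lay 0.22 below the median of all elements. Among 7 secreted plasma and acute phase proteins RARRES2, the adipokine chemerin, was at 4.81, 5.13, 4.22 and 4.74 against 5.52, 4.95, 5.45 and 5.54 (difference -0.64 ± 0.20, SE), and the median of the 7 was -0.00337.

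Redox and folding genes had differences in both directions. In antioxidant defence 17 of 27 were above 0, with a median of 0.0359, and 3 (11.1%) had an uncorrected p under 0.05, all higher, against 4.08% of all elements. GSR, which reduces oxidised glutathione, read 0.94, 0.68, 0.66 and 1.00 against 0.02, 0.22, 0.58 and 0.32 without overlap (difference 0.54 ± 0.14, SE). GCLM, a subunit of the enzyme that starts glutathione synthesis, was at 0.88 ± 0.32, and TXNRD1, thioredoxin reductase, at 0.28 ± 0.11. GPX3, a secreted glutathione peroxidase, had the widest difference in the list, -1.62 ± 0.75 (SE), with restricted cows from -0.07 to 4.23 and ad libitum cows from -0.09 to 1.00. Of 44 folding genes of the endoplasmic reticulum 29 were above 0 (median 0.0958). On day -65, the first day sampled, 33 of the 44 were already above 0 (median 0.162). HSP90B1, its HSP90 chaperone, was at 0.97 ± 0.30, while ERP29, another resident chaperone, was at -0.91 ± 0.29 with 3 restricted cows measured, and QSOX1, a sulfhydryl oxidase, at -0.41 ± 0.15. Cytosolic and mitochondrial chaperones (21 of 29) and the ubiquitin-proteasome list (22 of 32) were above 0 more often than below, with medians of 0.0859 and 0.0816. They had 0 and 1 members under the uncorrected threshold. That 1 member (3.12%, against 4.08% of all elements) was the proteasome-bound deubiquitinase USP14 (0.51 ± 0.19).

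AHCY, which hydrolyses S-adenosylhomocysteine in methyl-group metabolism, had restricted cows in a narrow band of 4.06, 3.99, 4.01 and 4.07 and ad libitum cows at 3.59, 3.66, 3.68 and 3.85. The difference was -0.34 ± 0.09 (SE) without overlap. Of its list, urea cycle and amino acid catabolism, 12 of 17 were below 0 (median -0.0652). Of 24 cell cycle and histone genes 18 were below (median -0.113), including the linker histones H1-3 (-0.52 ± 0.21) and H1-2 (-0.47 ± 0.19). On day -65, 18 of the 24 were also below (median -0.084). Translation factors were even, with 18 above and 18 below. Under the uncorrected threshold 3 were lower (8.33%, against 3.37% of all elements), the initiation factors EIF3K (-0.34 ± 0.11) and EIF4B (-0.34 ± 0.13) and the elongation factor subunit EEF1D (-0.25 ± 0.09). In the other direction 1 was higher (2.78%, against 4.08% of all elements), the initiation factor subunit EIF3A (0.49 ± 0.22), named after its value was seen. Oxidative phosphorylation (48 genes, median 0.0102), the mitochondrial ribosome (39, median -0.0219), the growth hormone and insulin axis (18, median -0.0382) and nutrient-sensing regulators (19, median 0.0581) lay near 0.

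No list of cell type markers had more than 1 member under the uncorrected threshold. The 1 member was lower among 7 T and NK cell markers (14.3%, against 3.37% of all elements). It was higher among 15 macrophage markers (6.67%, against 4.08%). With lists this short, such counts say little about the cell types. Medians were -0.00234 for 4 hepatocyte markers, 0.0136 for 15 macrophage markers, -0.0884 for 8 endothelial markers, -0.0416 for 9 stellate markers and -0.00825 for 9 cholangiocyte markers. Of 7 T and NK cell markers 6 were below 0 (median -0.145), with CD3E, a chain of the T cell receptor complex, at 1.59, 1.35, 1.24 and 1.35 against 1.75, 1.56, 1.67 and 1.81 (difference -0.31 ± 0.11, SE). In whole tissue fewer cells of a type and less RNA per cell cannot be told apart.

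**Figure D3:**
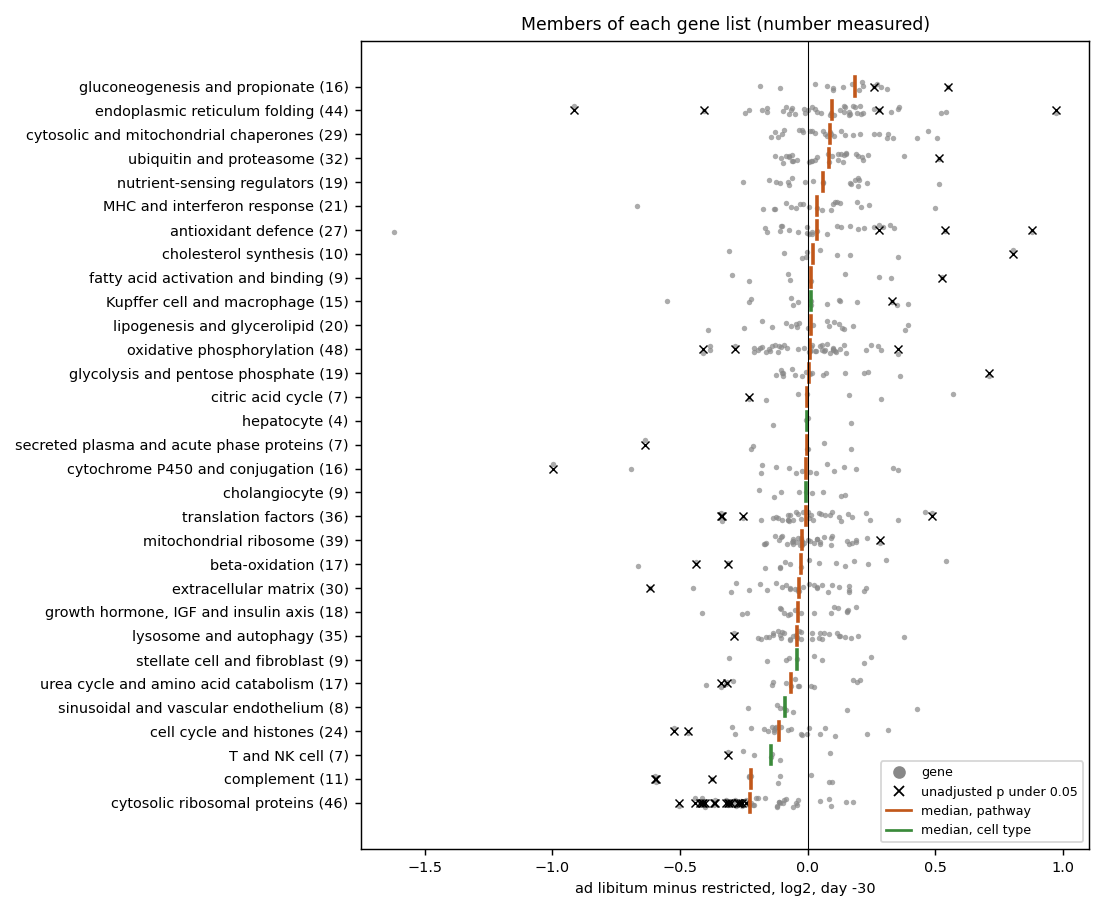
Differences between ad libitum and restricted cows on day -30 in log2 units for the members of each gene list with at least 4 measured genes, with a grey point per gene, a cross where the uncorrected p was under 0.05 and a coloured bar at the list median. Ribosomal proteins and complement lie at the lower end, with medians of -0.226 and -0.222, and gluconeogenesis at the upper end, with 0.187.

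The diets were also compared with each cow as its own baseline. From day -65, the first day sampled, to day -30, the change differed between diets for 0 of 8126 elements (0.0%) after correction by limma, with 7 cows, and 922 (11.3%) had an uncorrected p under 0.05, of which 598 (7.36%) were more positive and 324 (3.99%) more negative in ad libitum cows. These counts were 279 and 158 without cow 7187, 376 and 229 without 7045, 330 and 180 without 7105, and 939 and 625 without 7161. They were 196 and 117 in the 14-group fit with cow as a block, and 1584 and 34 on uncentred arrays, whose overall median change differed by 0.625. The 2 changes share the day -30 samples with the main comparison, so the values are set side by side only. In ad libitum cows TLN2 averaged -0.81 ± 0.26 (SD, n = 3) at the first of these days and -0.55 ± 0.11 (SD, n = 4) at the second, beside -0.67 ± 0.18 and -1.23 ± 0.10 (SD, n = 4) in restricted cows. The mean of GSR was 0.73 and 0.82 in ad libitum cows on these days, and 1.00 and 0.28 in restricted cows. That of RARRES2 was 5.31 and 4.73 in ad libitum cows and 5.01 and 5.37 in restricted cows, so the diets were in opposite order on the 2 days. PC was higher by 0.78 in ad libitum cows on day -65 and lower by 0.11 on day -30. Of the 24 leading genes 7 had the same sign of difference on day -65, 4 of the 12 higher and 3 of the 12 lower ones. The share of all elements with the same sign on days -65 and -30 was not worked out. Complement genes lay above 0 for 10 of 11 on day -65, with a median difference of 0.413, against 8 of 11 below on day -30, and the change differed with an uncorrected p under 0.05 for 5 of 11, all more negative (3.99% of all elements). Under scale normalization that count was 1, beside 2 more positive. It was 0 with liver in Cy3, 1 without cow 7161, 7045 or 7105, and 2 without cow 7187. Without centring it was 0, beside 1 more positive. The list median of the change was 0.0404 there, which lay 0.585 below the median of all elements.

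From day -30 to day -14 the change differed between diets for 0 of 8179 elements (0.0%) after correction by limma, and 529 (6.47%) had an uncorrected p under 0.05, of which 135 (1.65%) were more positive and 394 (4.82%) more negative in ad libitum cows. That split depended on single cows, with 769 more positive and 642 more negative without restricted cow 6877, 97 and 193 without cow 6886, 83 and 162 without 7050, and 146 and 193 without 6952. The 14-group fit with cow as a block gave 177 and 558. Of the leading genes 9 of the 12 higher and 10 of the 12 lower ones had the same sign of difference on day -14. The same 8 cows were sampled on both days. The share of all elements with the same sign was not worked out, so these counts are description only. LDHA differed by 0.61 on day -14 beside 0.55 on day -30, SULT1A1 by -1.21 beside -0.996, and ACAA1 by -1.32 beside -0.44. On day -65 LDHA differed by 0.33, SULT1A1 by 0.02 and ACAA1 by 0.17. The other ACAA1 element differed by -0.41 on day -14 beside -0.64 on day -30. On day -14 the diets did not overlap for the leading ACAA1 element and overlapped for LDHA and SULT1A1. MAN2B1 differed by -0.98 on day -14 with a wide spread, since restricted cows were at 1.02, 3.11, 3.53 and 3.03 and cow 6877 lay below all ad libitum cows (1.41 to 1.86). TLN2 was at -0.05 on day -14, where restricted cows averaged -0.68 ± 0.18 (SD, n = 4). The median of the ribosomal proteins was -0.106 on day -65, -0.226 on day -30 and -0.415 on day -14, that of complement 0.413, -0.222 and -0.714, that of beta-oxidation 0.215, -0.0276 and -0.247, and that of the T and NK cell markers -0.0742, -0.145 and -0.885. The median of the gluconeogenesis list was -0.0133, 0.187 and 0.0728, with 14 of 16 above 0 on day -30 and 9 of 16 on day -14. Day -65 had 3 ad libitum cows and the other days 4. For the ribosomal proteins the median change to day -30 differed between diets by -0.147, but by 0.0203 with liver in Cy5. Their change to day -14 differed by -0.159, but by -0.0316 under scale normalization and -0.0211 without cow 7105. The 2 changes of complement were -0.567 and -0.393, and 0.0642 and -0.075 under scale normalization. The medians by day of beta-oxidation, the T and NK cell markers and gluconeogenesis are given under the main processing only.

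**Figure D4:**
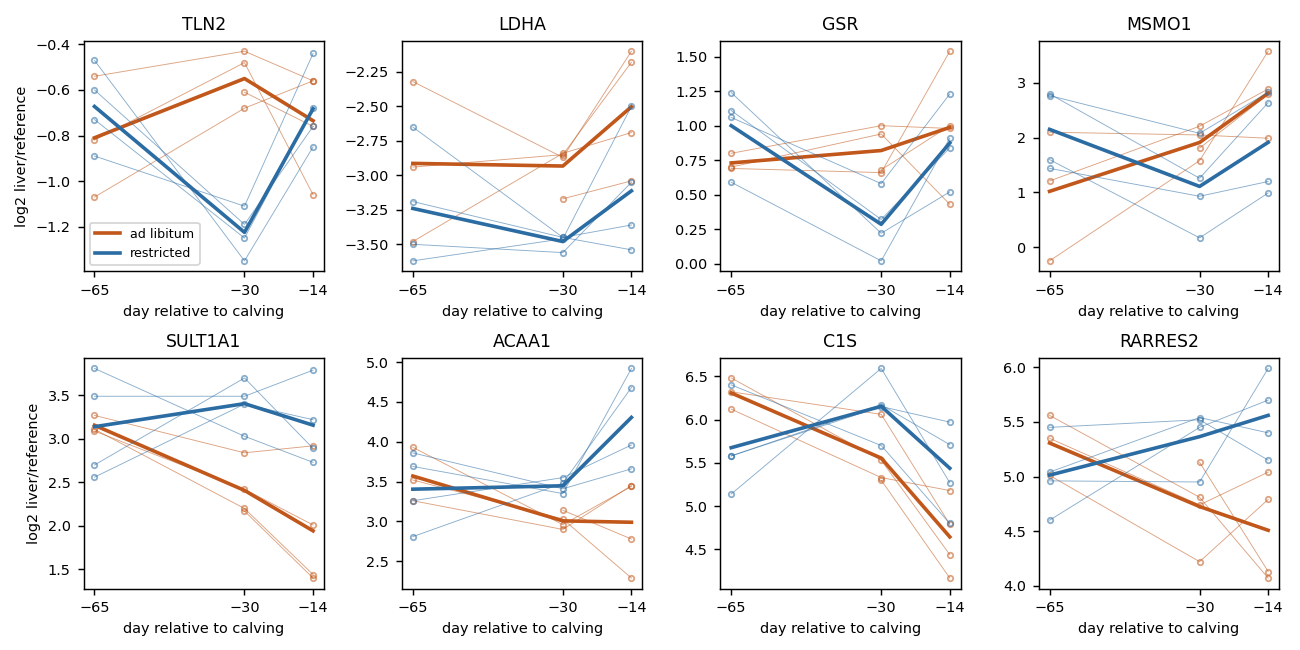
Log2 ratios of liver over reference of 8 genes on days -65, -30 and -14, with thin lines for cows and thick lines for the mean of each diet. The genes were picked for display after their values had been seen. For SULT1A1 the diets start together on day -65 and differ by -0.996 on day -30, and for RARRES2 the order of the diets differs between days -65 and -30.

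Cows of 1 diet were about as far from each other as from cows of the other diet. Over 8021 elements the correlation between 2 cows of different diets had a median of 0.928 in 16 pairs (0.867 to 0.954), and it was 0.917 within ad libitum and 0.936 within restricted cows. The first principal component held 38.1% of the variance between cows and placed restricted cows 6877 (0.537) and 7105 (0.425) beside ad libitum cow 7161 (0.291), with ad libitum cows 7187 (-0.458) and 6886 (-0.372) beside restricted cow 6952 (-0.291). An absolute difference over 1 was found for 38 elements. The 12 named genes with the widest differences are a set chosen after the values were seen. Among them CHKA and NR4A1 were the 2 measured in all 8 cows whose diets did not overlap, which follows in part from ranking by size. Over all elements measured in every cow, 2.08% did not overlap with ad libitum cows above and 1.97% with them below. Another CHKA element did not overlap in the opposite direction (0.43 ± 0.13, SE). NR4A1, an immediate early nuclear receptor, read 2.27, 1.63, 0.91 and 0.78 in ad libitum cows against 0.44, -0.39, 0.75 and -0.00 (difference 1.20 ± 0.35, SE). CCL26 differed by -1.20 ± 0.85, with 1 restricted cow at 3.46 and the others between -0.99 and -0.46.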

How the data were processed

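The authors deposited a log2 ratio of Cy5 over Cy3 for 16416 spots per array. The log base was read from the values, where 1 and -1 were 4.6 and 14.6 times as frequent as their neighbours. Per the labels, GenePix 4.0 processed the scans. Any background or dye correction is not given in the sources used here. No intensities were used. With 1 value per cow, the precision rests on 4 cows per diet. The sign was turned where liver was Cy3, following the titles, since the source name of 1 array of cow 7045 gives the other dye. The 2 spots of each of 8208 elements were averaged, array medians were set to 0, and a cow's value is the mean of its orientations, given only where both were present. That last rule was set after a first run that used either orientation, which is kept as an alternative. Of 262656 spot values 2305 were missing. A single symbol was available for 5598 elements from the platform annotation, 5591 of them updated through a RefSeq gene table, several symbols for 95 and none for 2515.

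The diets were compared with limma 3.58.1 in R 4.3.3 (lmFit and eBayes, at least 2 cows per diet, two-sided, Benjamini-Hochberg over all elements, threshold 0.05). Cow numbers pair the days, as they name the animals, so changes were fitted as 1 difference per cow. The block correlation within cows was 0.0176 over 14 groups. Up to 12 genes per direction by smallest p, up to 3 members per list and PC, CPT1A, ACSL1, SREBF1, PCK1, FABP1, ACACA, SCD, IGF1, IGFBP2 and GHR were named by rule, with 1 further gene that is not reported here. A gene with several elements is represented in its list by the one with fewest missing spots. The comparison and the 35 lists were chosen with earlier results of these data known. Alternatives covered centring, scale and quantile normalization, orientation, filters, blocks and leaving out each cow.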

Additional observations from a re-analysis of the deposited data

Results flagged for a closer look

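In groups of 4 cows, 8 values among the named genes stood apart from the 3 others of their diet, in 6 genes and out of 236 groups examined, and chance alone sets apart about 1 in 20 groups. LDHA was set apart in both diets, with ad libitum cow 7050 at -3.17 (others -2.87 to -2.84) and restricted cow 7045 at -3.56 (others -3.46 to -3.45). FH, the fumarase of the citric acid cycle, was at 1.82 in ad libitum cow 6886 (others 0.26 to 0.48). RARRES2 was at 4.95 in restricted cow 6952 (others 5.45 to 5.54), and HSP90AB1 at 0.20 in the same cow (others -0.85 to -0.70). RPS20 was at -1.20 in restricted cow 6877 (others -1.44 to -1.42). RSAD2, an interferon-induced gene, was at 1.27 in ad libitum cow 7187 (others 0.07 to 0.20) and at 0.19 in restricted cow 7105 (others -0.17 to -0.13).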

How the results depend on the processing

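No element passed at day -30 under any alternative but 1: with liver in Cy3 alone 1 element without a gene symbol passed. The smallest adjusted p of each other alternative ranged from 0.0553 to 0.999. The count of uncorrected p under 0.05 was 932 without centring (895 higher and 37 lower, with the median of all elements at 0.198), 407 with liver in Cy3 alone and 77 with all 14 groups and the replicate block. Leaving out each cow gave 313 to 1010, with 313 without cow 7187, 331 without 6877, 404 without 7105, 1006 without 7161 and 1010 without 6952. The count whose cows did not overlap was 325, and 194 with liver in Cy3 alone. The change from day -65 to day -30 passed 0 to 1 elements when each cow was left out (1 without cow 6886), and the change from day -30 to day -14 passed 0 in each alternative. Using 1 orientation where the other was missing, an alternative added after seeing the data, gave 602. The counts for the ribosomal proteins under each alternative were also added then. Signs differed for 11 of 123 named elements without centring and for 9 under scale normalization, and for the medians of 17 and 9 of 35 lists. List medians also turned sign for 8 lists with liver in Cy5 alone, 7 with liver in Cy3 alone and 3 to 11 when each cow was left out (11 without cow 7161 or 7045). The causes were not tested.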
